A study of Homo sapiens with 6 samples.

Results

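The myeloperoxidase locus is a 300 kb window of human chromosome 17 (hg19) that holds 3 haem peroxidase genes, EPX, LPO and MPO, together with the microRNA gene MIR142 and the long non-coding RNA gene TSPOAP1-AS1. The locus was chosen by the width of its mock peaks, as the 3 widest SUMO-2/3 peaks of mock-treated HL-60 cells lie in it, and every peak of the 3 deposited lists that falls in the window is counted here, with positions for the wide peaks, the shared peaks and those near start sites of the named genes. These are 79 peaks of 149899, of which 36 belong to the mock list (44265 peaks), 35 to the Ara-C list (72279) and 8 to the DNR list (33355). The 5 named genes lie wholly in the window. The 2 widest mock peaks were not in MPO itself but at TSPOAP1 and MIR142HG, and the third covered the end of LPO, so the name myeloperoxidase describes the neighbourhood and not the place of the widest peaks.

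HL-60 is an established human acute myeloid leukaemia cell line. The cells received water (mock), 2.0 µM cytosine arabinoside (Ara-C, a nucleoside analogue) or 1.0 µM daunorubicin (DNR, an anthracycline) for 2 h, and chromatin carrying proteins conjugated to SUMO-2/3 was immunoprecipitated and sequenced (ChIP-seq). Material of 3 experiments was pooled before sequencing, so each condition is 1 library and 1 peak list, and no comparison between conditions has a replicate check. Of the 6 samples, the 3 inputs were not analysed here. The study asked how the drugs change the place of SUMOylated proteins on chromatin. The lists give positions and no heights, read numbers or depth. A peak is a run of signal above a fixed value that reaches at least 150 bp, so a missing peak says that no such run was called and not that SUMO was absent, and a difference between drugs cannot be told apart from a difference in depth or in immunoprecipitation. All intervals below are 95% intervals and cover counting error only.

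SUMO-2 and SUMO-3 are small ubiquitin-like proteins that are attached to lysines of other proteins, many of which are transcription factors and chromatin regulators. MPO encodes myeloperoxidase, the enzyme of azurophilic granules that makes hypochlorous acid in neutrophils and their precursors. EPX encodes the peroxidase of eosinophils and LPO the lactoperoxidase of secretions such as milk and saliva. MIR142 gives rise to a pair of microRNAs that are abundant in blood cells, and TSPOAP1 encodes a protein that binds the mitochondrial translocator protein TSPO and other partners at synapses.

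The microRNA sequences and the start of the MIR142 host gene are shown first, because the second widest mock peak lies over them. Both mature microRNAs are given 5′ to 3′ with the seed, bases 2 to 8, in capitals. The seeds differ, so the microRNAs of the hairpin fall into separate seed families.
hsa-miR-142-3p: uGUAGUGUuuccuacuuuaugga
hsa-miR-142-5p: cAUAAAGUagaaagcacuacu
The hairpin matched the GRCh37 sequence (the assembly of hg19) once, at chr17:56408593-56408679 on the minus strand, with miR-142-3p at 56408606-56408628 and miR-142-5p at 56408644-56408664. It lies in the transcribed region of MIR142HG (chr17:56408240-56409884, minus strand) and, on the other strand, in an intron of TSPOAP1-AS1 (chr17:56401833-56493127, plus strand). The RefSeq promoter of MIR142HG (250 bases before the start to 50 after, from GRCh38.p14) matched GRCh37 once, at chr17:56409832-56410131, and reads as follows on the minus strand, with an E-box (CACGTG) in capitals.
MIR142HG promoter: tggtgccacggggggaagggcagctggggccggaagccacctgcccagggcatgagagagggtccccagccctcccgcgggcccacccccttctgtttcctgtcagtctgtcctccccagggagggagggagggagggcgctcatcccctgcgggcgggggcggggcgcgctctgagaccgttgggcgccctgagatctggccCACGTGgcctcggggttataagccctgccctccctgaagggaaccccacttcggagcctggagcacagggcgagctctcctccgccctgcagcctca
The E-box letters occur in 7.26% of the 35116 RefSeq promoters and in 3.67% of all 300 bp windows of chromosome 17. Ara-C peaks covered all 300 bases of this promoter and the mock peak covered 69 bases of it, whereas no base lay in a DNR peak. The promoters of MPO, EPX, TSPOAP1 and MIR142 are named only.

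The only stretch that was called in all 3 lists is the 500 bp DNR peak upstream of TSPOAP1, and its central 300 bases are shown next. They lie at chr17:56406951-56407250 and are given on the plus strand with a GATA motif (AGATAA, here read on the other strand) in capitals.
Centre of the DNR peak at TSPOAP1: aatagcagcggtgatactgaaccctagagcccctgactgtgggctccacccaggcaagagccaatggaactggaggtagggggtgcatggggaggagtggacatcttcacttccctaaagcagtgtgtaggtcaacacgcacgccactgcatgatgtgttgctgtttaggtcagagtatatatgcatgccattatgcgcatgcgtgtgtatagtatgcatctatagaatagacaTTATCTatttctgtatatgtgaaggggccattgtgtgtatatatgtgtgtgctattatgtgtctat
This motif was found in 16.1% of the 300 bp windows of chromosome 17, and its presence is a description of the letters and not of a bound factor.

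Peaks were crowded in the locus in mock and Ara-C cells and far fewer in DNR cells. The mock list held 36 peaks (Poisson interval 25.2 to 49.8), or 120 per Mb against 19.7 per Mb on the rest of chromosome 17. The Ara-C list held 35 (24.4 to 48.7), or 117 per Mb against 30.3. The DNR list held 8 (3.45 to 15.8), or 26.7 per Mb against 13.2. The locus was therefore denser than the rest of the chromosome by a factor of 6.10 (4.26 to 8.49) in mock and 3.85 (2.67 to 5.37) under Ara-C. Under DNR the factor was 2.02 (0.870 to 4.0), an interval that includes 1. It left out 1 with the locus narrowed to the 5 genes and 10 kb on either side (2.5, 1.07 to 4.94) and against the 5 Mb on either side alone (2.4, 1.01 to 4.90). These intervals take no account of the spread between windows of the chromosome. Of 252 other windows of 300 kb, 36 held as many or more DNR peaks, so no DNR enrichment is read from the intervals. Since the mock list chose the locus, its density is a description. The densities over the whole genome were 15.5, 25.3 and 11.7 per Mb in mock, Ara-C and DNR.

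The number of peaks under each drug was also set beside the mock number. Under Ara-C, the rest of chromosome 17 had 1.54 times as many peaks as in mock (1.44 to 1.65), whereas the ratio in the locus was 0.972 (0.593 to 1.59). Under DNR the rest of the chromosome had 0.671 times as many peaks as in mock (0.620 to 0.727) and the locus 0.222 times as many (0.0892 to 0.486). Both ratios in the locus divide by the mock list, which chose the locus for its extreme peaks, so they are a description and no difference from the rest of the chromosome is read from them.

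Set against the 252 other 300 kb windows of chromosome 17, none held as many mock or Ara-C peaks as the locus. The other windows had a median of 5 mock peaks and at most 19, the number also found in the window just before the locus, and the window just after it had 9. For Ara-C the median was 8 and the maximum 29, with 16 in the window before and 10 in the window after. For DNR the median was 3 and the maximum 18. There, 27 windows held more peaks than the locus and 36 held as many or more, so the locus was not the densest window of the DNR list. The windows on either side had 3 DNR peaks each.

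**Figure D1:**
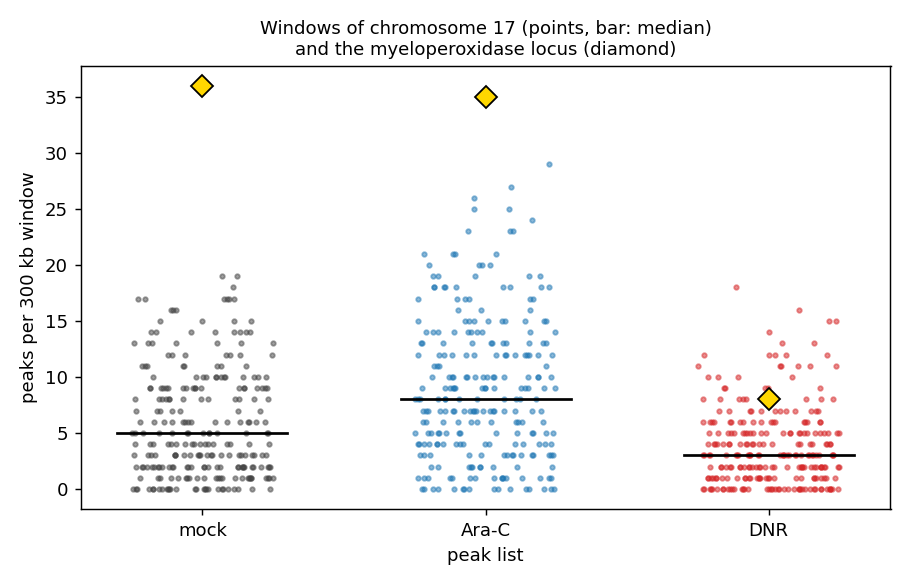
Number of SUMO-2/3 peaks (vertical axis) in each 300 kb window of chromosome 17 for the mock, Ara-C and DNR lists (horizontal axis). Small points are the 252 other windows, black bars their medians (5, 8 and 3) and diamonds the locus, which stands above all other windows with 36 mock and 35 Ara-C peaks and within them with 8 DNR peaks.

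The limits of the window did not cut through a cluster. The last peaks before it lay at chr17:56190501-56190700 (mock, 200 bp), 56190501-56190650 (Ara-C, 150 bp) and 56190701-56190850 (DNR, 150 bp). The first peaks inside were a mock peak of 150 bp at 56232201, an Ara-C peak of 150 bp at 56233951 and a DNR peak of 150 bp at 56268501. The last inside started at 56478301 (mock, 150 bp), 56495101 (Ara-C, 150 bp) and 56460101 (DNR, 250 bp), and the first after it at 56511051 (150 bp), 56521951 (250 bp) and 56535101 (150 bp).

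Most of the crowding came from 2 spans, whose borders were set after the values had been seen. The first runs over MPO and the end of LPO for 23.0 kb and held 13 mock peaks that covered 27.0% of it, 11 Ara-C peaks that covered 19.3% and 2 DNR peaks that covered 1.96%. The second runs over MIR142 and the start of TSPOAP1 for 13.0 kb and held 10 mock peaks (45.0% covered), 9 Ara-C peaks (48.5%) and 2 DNR peaks (5.38%). Together the spans held 42.6% and 40.2% of the mock base pairs of the locus, respectively. For Ara-C these shares were 32.7% and 46.3%.

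**Figure D2:**
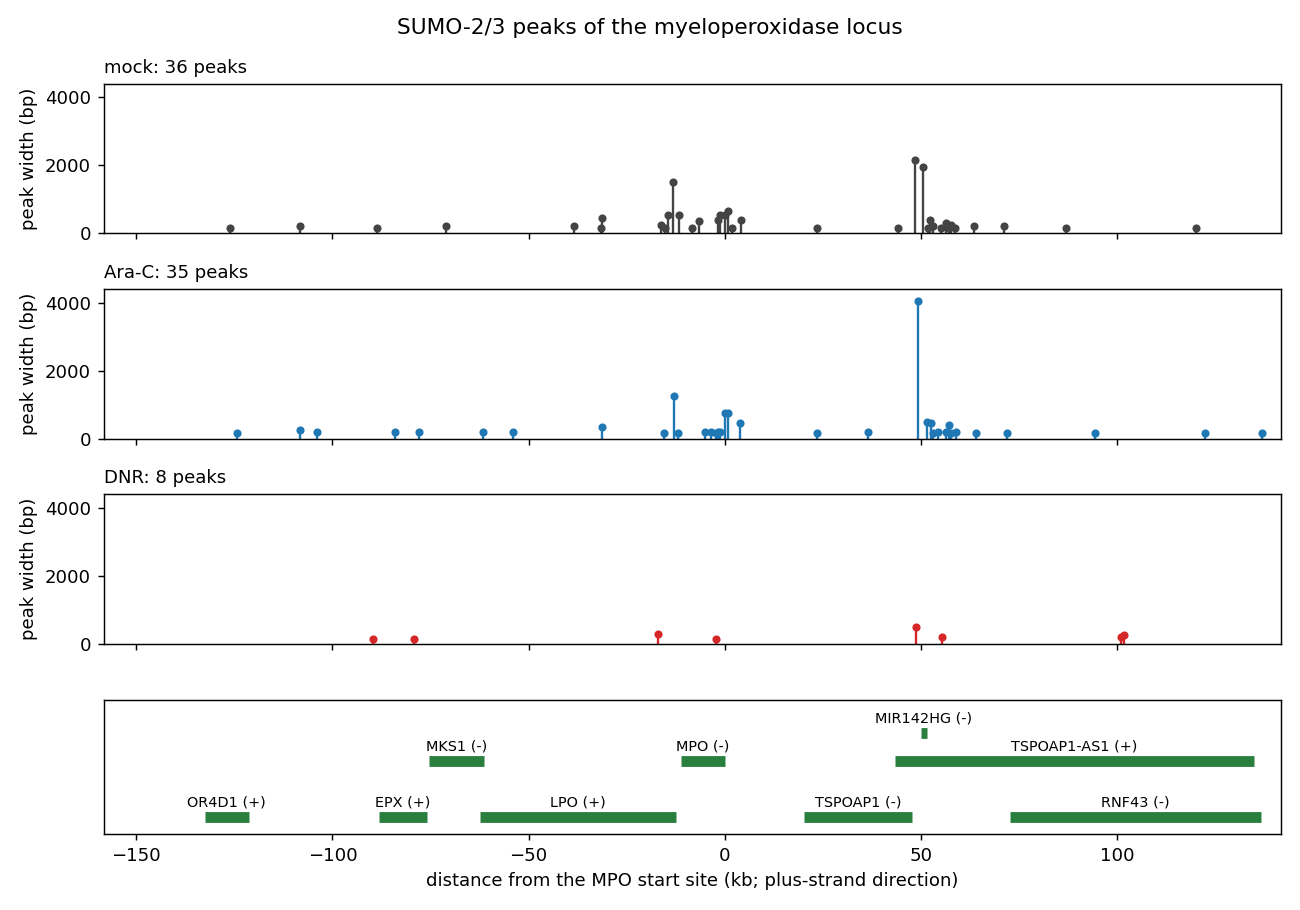
Width in bp (vertical axis) of each peak of the locus against the distance of its midpoint from the MPO start site in kb (horizontal axis), for the mock, Ara-C and DNR lists, with genes and their strands in the lowest panel. The tall peaks of mock (up to 2150 bp) and Ara-C (up to 4050 bp) stand at the end of LPO, at MPO and at TSPOAP1 and MIR142HG, and the widest DNR peak is 500 bp.

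Widths are given as a description, since mock widths chose the locus. Mock peaks of the locus were 150 to 2150 bp wide with a mean of 404 bp and a median of 200 bp, against a mean of 207 bp and a median of 200 bp on the rest of the chromosome. Ara-C peaks were 150 to 4050 bp wide with a mean of 389 bp (202 bp elsewhere), and DNR peaks 150 to 500 bp with a mean of 238 bp (189 bp elsewhere). Peaks of at least 400 bp numbered 12 of 36 in mock (33.3%, against 5.12% elsewhere on the chromosome), 8 of 35 under Ara-C (22.9% against 4.17%) and 1 of 8 under DNR (12.5% against 2.64%). Outside the locus, the widest peak of the chromosome was 700 bp in mock, 900 bp under Ara-C and 1150 bp under DNR. Peaks covered 14550 bp of the locus in mock (4.85%), 13600 bp under Ara-C (4.53%) and 1900 bp under DNR (0.633%), while 0.408%, 0.612% and 0.25% of the rest of the chromosome was covered. Among all peaks of each list that were at least as wide as the tenth widest, the locus held 3 of 13 in mock, 2 of 12 under Ara-C and 0 of 10 under DNR.

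The widest peaks lay at MIR142 and at the start of TSPOAP1. In mock cells the widest peak of the list, chr17:56405701-56407850 (2150 bp), covered both TSPOAP1 start sites (56406121 and 56406156, minus strand), and the second widest, chr17:56407951-56409900 (1950 bp), covered MIR142HG from end to end with the MIR142 hairpin in it. A gap of 100 bp separated them, the smallest in any list, and 205 such gaps occurred in the mock list. In Ara-C cells a single peak, chr17:56405551-56409600 (4050 bp), again the widest of its list, covered the TSPOAP1 start sites and the hairpin, and a second one at chr17:56409751-56410250 (500 bp) covered the MIR142HG start site (56409884). The 4050 bp peak shared 3800 bp with the mock list. In DNR cells, by contrast, 1 peak of 500 bp was called in the stretch, chr17:56406851-56407350, which ranked 223 by width in its list, lay inside the widest mock and Ara-C peaks and was 695 bp from the nearer TSPOAP1 start site. The DNR list had no peak over MIR142HG. Its nearest peak, the 500 bp one, was 1242 bp from the hairpin and 2534 bp from the MIR142HG start site. The share of MIR142HG covered by peaks was 100% for the mock list, 90.9% for the Ara-C list and 0% for the DNR list.

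Beyond the MIR142HG start site, mock peaks followed at chr17:56410151-56410300 (150 bp), 56410501-56410900 (400 bp) and 56411401-56411600 (200 bp), each sharing bases with an Ara-C peak. The Ara-C partners of the latter were 56410551-56411000 (450 bp) and 56411351-56411500 (150 bp), and the first shared 100 bp with the 500 bp peak over the start site. MIR4736, a microRNA gene with its start site at 56413383, was covered by a mock peak of 150 bp (56413251-56413400), whereas the nearest Ara-C peak was 533 bp and the nearest DNR peak, 56413701-56413900 (200 bp), 318 bp from that site. All of these peaks lie in introns of TSPOAP1-AS1.

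TSPOAP1-AS1, a long non-coding gene on the opposite strand to TSPOAP1 and MIR142HG, held 15 mock, 13 Ara-C and 4 DNR peaks, which covered 7.34%, 7.56% and 1.26% of it. Its start site at 56414669 was covered by a mock peak of 300 bp (56414651-56414950) and by an Ara-C peak of 200 bp (56414501-56414700) that also covered the site at 56414607, while the nearest DNR peak was 769 bp from the former. Another of its start sites, 56402811, was in no peak of any list. There the nearest mock peak was 56402351-56402500 (150 bp), 311 bp away, and the nearest Ara-C and DNR peaks were 2740 and 4040 bp away. Inside the gene, mock peaks at 56415451-56415600 (150 bp) and 56415901-56416150 (250 bp) overlapped Ara-C peaks at 56415251-56415650 (400 bp) and 56416001-56416150 (150 bp). An Ara-C peak of 200 bp (56412651-56412850) before these start sites had no partner. The DNR peaks in the far part of the gene, 56459301-56459500 (200 bp) and 56460101-56460350 (250 bp), were 14000 and 14800 bp from the nearest mock peak and lie in introns of RNF43 as well, which encodes a ubiquitin ligase of the Wnt pathway.

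**Figure D3:**
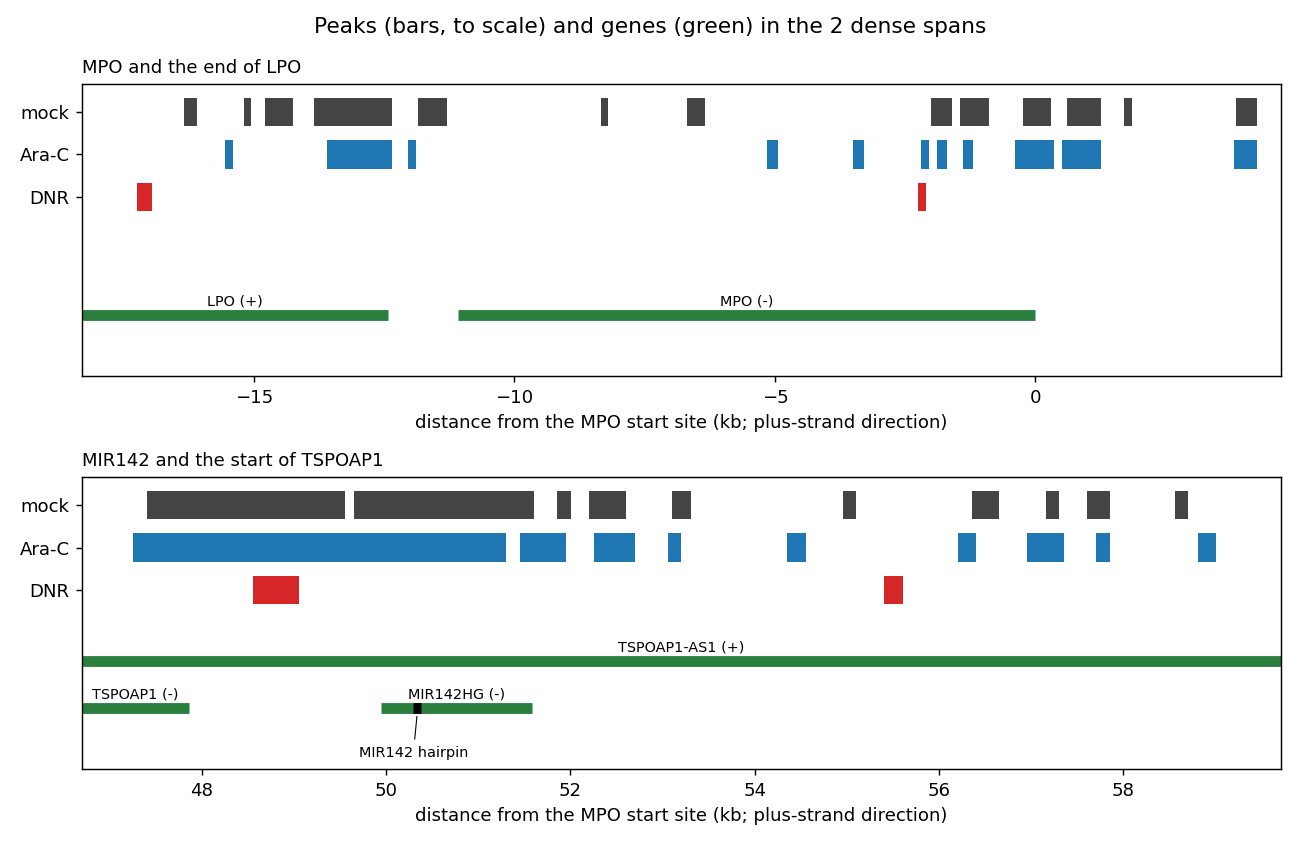
Peaks of the mock, Ara-C and DNR lists drawn to scale as bars over MPO and the end of LPO (upper panel) and over MIR142 and the start of TSPOAP1 (lower panel), with genes in green and the MIR142 hairpin in black. The horizontal axis is the distance from the MPO start site in kb, and the MPO start site and the hairpin lie under wide mock and Ara-C bars and under no DNR bar, while 1 DNR bar of 500 bp lies beneath the widest mock and Ara-C bars.

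MPO (chr17:56347216-56358296, minus strand, start site 56358296) held 5 mock, 6 Ara-C and 1 DNR peak in its body, and peaks covered 15.3%, 12.1% and 1.35% of the gene. With the 2 kb upstream of it, 7 mock, 7 Ara-C and 1 DNR peak were counted. The start site lay in a mock peak, chr17:56358051-56358600 (550 bp), and in an Ara-C peak that contained the mock peak, 56357901-56358650 (750 bp). A second pair followed upstream, with a mock peak at 56358901-56359550 (650 bp, midpoint at -929 bp from the start site) inside an Ara-C peak at 56358801-56359550 (750 bp). In both pairs the Ara-C peak was the wider one. The third mock peak of the promoter, 56360001-56360150 (150 bp), had no partner. Further upstream, a mock peak at 56362151-56362550 (400 bp) lay inside an Ara-C peak at 56362101-56362550 (450 bp), with midpoints at -4054 and -4029 bp from the start site.

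Further into the body of MPO, both peaks that mock and Ara-C shared were narrower under Ara-C. Mock peaks at chr17:56356301-56356700 (400 bp) and 56356851-56357400 (550 bp) each contained an Ara-C peak of 200 bp, at 56356401-56356600 and 56356901-56357100. A mock peak at 56351601-56351950 (350 bp) had no partner, nor had one of 150 bp at 56349951 or the Ara-C peaks of 200 bp at 56353151 and 56354801. The single DNR peak of the gene, 56356051-56356200 (150 bp), was 2096 bp from the start site. It shared 100 bp with an Ara-C peak at 56356101-56356250 (150 bp), the only region of the locus called under both drugs and not in mock.

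LPO (chr17:56295909-56345879, plus strand) held 7 mock, 5 Ara-C and 1 DNR peak, which covered 6.36%, 4.16% and 0.60% of it, and the wide ones lay at its end and not at its start. The third widest mock peak, chr17:56344451-56345950 (1500 bp), ran over the end of the gene and contained the Ara-C peak at 56344701-56345950 (1250 bp, rank 7 in its list), with the same end position. Between LPO and MPO, a mock peak at 56346451-56347000 (550 bp) had no partner, although an Ara-C peak of 150 bp at 56346251-56346400 lay close by. A further mock peak in the gene, 56343501-56344050 (550 bp), was unmatched. In the middle of the gene, a mock peak at 56326901-56327350 (450 bp) contained an Ara-C peak at 56326951-56327300 (350 bp). The DNR peak, 56341051-56341350 (300 bp), was intronic and 600 bp from the nearest mock peak. No mock peak lay within 2 kb of an LPO start site. There, an Ara-C peak of 200 bp, 56296651-56296850, was 742 bp from the first start site (56295909) and also lies in MKS1, a gene of the ciliary transition zone.

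EPX (chr17:56270087-56282535, plus strand) had only narrow peaks and no shared one. No mock peak, 2 Ara-C peaks of 200 bp (56274151-56274350 and 56280251-56280450) and 1 DNR peak of 150 bp (56279151-56279300) lay in its body. Upstream of its start site were a mock peak of 150 bp (56269501-56269650, 437 bp from the site) and a DNR peak of 150 bp (56268501-56268650, 1437 bp from it). EPX was thus the only one of the 5 genes with at least as many DNR as mock peaks when 2 kb upstream was included, 2 against 1, in numbers too small to be told apart.

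The other genes of the window carried few and narrow peaks. OR4D1, an olfactory receptor gene, had 1 mock and 1 Ara-C peak of 150 bp, which lay 2039 and 289 bp from the start of the pseudogene MSX2P1, MKS1 had 1 mock and 1 Ara-C peak of 200 bp, and RNF43 had 2 peaks in each list. The uncharacterised genes ENSG00000278627 and ENSG00000287337 had an Ara-C peak over a start site, ENSG00000286788 had 1 mock peak and ENSG00000285897, which lies along RNF43, had 3 mock, 3 Ara-C and 2 DNR peaks in its body. SUPT4H1, which encodes a subunit of the transcription elongation factor DSIF, had a mock peak of 200 bp over a start site (56429401-56429600) and an Ara-C peak of 150 bp (56430201) within its body. A pair at TSPOAP1, 56381701-56381850 in mock and 56381751-56381900 under Ara-C (150 bp each), shared 100 bp in an exon. In the part nearest to EPX, a mock peak of 200 bp (56250051-56250250) and an Ara-C peak of 250 bp (56249901-56250150) shared 100 bp downstream of the olfactory receptor gene OR4D2. Peaks of 150 bp, the shortest width allowed, numbered 14, 12 and 3 in the mock, Ara-C and DNR lists.

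By midpoint, mock peaks fell into promoters (2 kb upstream of a start site of a protein-coding gene or of TSPOAP1-AS1), exons, introns and intergenic sequence in 8, 6, 19 and 3 cases, Ara-C peaks in 8, 6, 17 and 4, and DNR peaks in 3, 0, 5 and 0. The promoter share was 22.2% in mock (Wilson interval 11.7 to 38.1) against 17.2% on the rest of chromosome 17. Under Ara-C it was 22.9% (12.1 to 39.0) against 14.5%, and under DNR 37.5% (13.7 to 69.4) against 6.16%. Only the DNR interval leaves out the value of the rest, and it rests on 3 peaks. Promoters on the rest of the chromosome were those of protein-coding genes alone. With that definition in the locus too, the promoter peaks numbered 6 for the mock list (16.7%), 6 for the Ara-C list (17.1%) and 2 for the DNR list (25%, 7.15 to 59.1). The intergenic share was 8.33% (2.87 to 21.8) in mock against 30.4% on the rest, and 11.4% (4.54 to 26.0) under Ara-C against 31.1%. Under DNR it was 0 of 8 (upper limit 32.4%) against 33.0%. Many mock and Ara-C peaks of the locus counted as genic only because they lie in TSPOAP1-AS1. On the rest, peaks in non-coding genes alone counted as intergenic, so no difference is read from these shares.

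The overlap between lists addressed which sites had a peak under more than 1 treatment. Of the 36 mock peaks, 17 shared at least 1 bp with an Ara-C peak, or 47.2% (32 to 63.0), against 25.7% of mock peaks on the rest of chromosome 17. Conversely, 16 of 35 Ara-C peaks were found in mock, 45.7% (30.5 to 61.8) against 16.7%. The counts differ because at MIR142HG 3 mock peaks met 2 Ara-C peaks, those of 4050 and 500 bp. Of the mock peaks, 1 of 36 met a DNR peak, 2.78% (0.492 to 14.2) against 4.07%, and of the DNR peaks 1 of 8 met a mock peak, 12.5% (2.24 to 47.1) against 6.06%. Between the drugs, 2 of 35 Ara-C peaks met a DNR peak, 5.71% (1.58 to 18.6) against 3.41%, and 2 of 8 DNR peaks met an Ara-C peak, 25.0% (7.15 to 59.1) against 7.72%. The intervals of all 4 shares that involve DNR include the value of the rest of the chromosome.

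Wide mock peaks met an Ara-C peak more often than narrow ones, both in the locus and on the rest of the chromosome, so the shares were also taken by width. Among mock peaks of at least 400 bp, 10 of 12 were found under Ara-C, 83.3% (55.2 to 95.3) against 78.2% elsewhere. Among those of 200 to 350 bp it was 4 of 10, 40% against 34.2%, and among those of 150 bp 3 of 14, 21.4% (7.57 to 47.6) against 10.1%. Within each class of mock peaks the interval of the locus includes the value of the rest. The class of at least 400 bp holds the 3 mock peaks that chose the locus, so its shares are a description. For DNR, 1 of 12 mock peaks of at least 400 bp was found, 8.33% (1.49 to 35.4), against 23.1% elsewhere, where 18 of 78 were found. These values too lie within counting error of each other. All 8 Ara-C peaks of at least 400 bp met a mock peak, against 70.4% elsewhere. Of the Ara-C peaks of 200 to 350 bp, 5 of 15 met one, 33.3% (15.2 to 58.3) against 21.7%. Of those of 150 bp, 3 of 12 met one, 25% (8.89 to 53.2) against 6.63%. Mock peaks, which chose the locus, cover 4.85% of it against 0.408% of the rest, so shares of peaks that met a mock peak are a description and no difference from the rest is read from them.

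**Figure D4:**
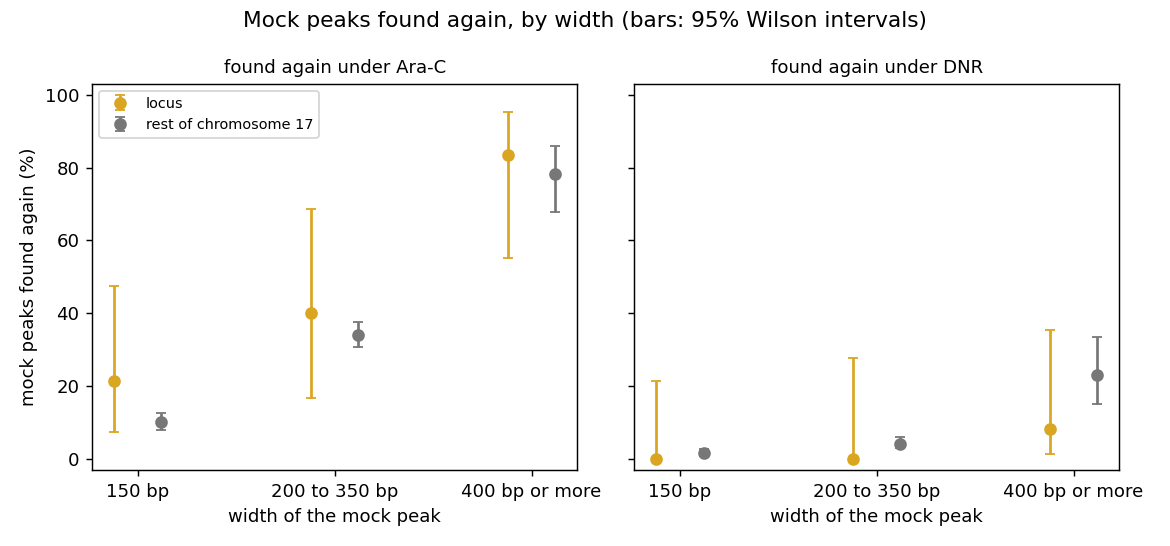
Share of mock peaks (vertical axis, percent) that met an Ara-C peak (left) or a DNR peak (right), by width of the mock peak (horizontal axis), in the locus and on the rest of chromosome 17. Points are shares and bars are 95% Wilson intervals, and the Ara-C share rises with width from 21.4% to 83.3% in the locus and from 10.1% to 78.2% on the rest.

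Merging touching peaks of the 3 lists gave 59 regions. Of these, 19 were in mock only, 18 in Ara-C only, 6 in DNR only, 14 in mock and Ara-C, 1 in Ara-C and DNR, 0 in mock and DNR and 1 in all lists. Regions in mock only made up 32.2%, against 24.9% on the rest of the chromosome, those in Ara-C only 30.5% against 43.4%, those in DNR only 10.2% against 20.8%, and those in mock and Ara-C 23.7% against 8.26%. The region in all lists, chr17:56405551-56410300, was 4750 bp long. Counted in base pairs, mock and Ara-C peaks shared 8650 bp, which is 59.5% of the mock and 63.6% of the Ara-C base pairs (23.8% and 15.9% elsewhere). Mock and DNR peaks shared 500 bp, or 3.44% of the mock and 26.3% of the DNR base pairs (3.31% and 5.40% elsewhere), all of it in the DNR peak at TSPOAP1. Mock widths chose the locus, and wide peaks weigh most in base pairs. The shares of regions and of base pairs are therefore a description, and no difference from the rest is read from them.

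The letters of 7 motifs were searched on both strands in 300 bp around each midpoint. The core motif of CTCF, an insulator protein that the study followed, was in 0 of 36 mock, 0 of 35 Ara-C and 0 of 8 DNR peaks (upper limits 9.64%, 9.89% and 32.4%). On the rest of chromosome 17 it was in 4.46%, 2.98% and 1.76% of peaks and in 0.0918% of all windows. The upper limits lie above those shares, so a lower share in the locus was not detectable with these numbers. The letters do occur in the locus, at 2 sites that lie in no peak of any list and are shown on the plus strand of GRCh37 with the match in capitals. The first, chr17:56332358-56332431, is in LPO and the second, chr17:56385820-56385893, in TSPOAP1. Mock peaks covered 4.85% of the locus, so sites outside peaks are not read as a lack of CTCF.
CTCF match in LPO: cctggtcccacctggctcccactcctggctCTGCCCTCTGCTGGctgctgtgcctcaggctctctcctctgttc
CTCF match in TSPOAP1: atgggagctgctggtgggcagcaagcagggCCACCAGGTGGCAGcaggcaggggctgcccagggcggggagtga

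PU.1 is an Ets-family transcription factor needed for myeloid development, and its letters were searched as GAGGAAGT. They were found around 5 of 36 mock peaks, 13.9% (6.08 to 28.7), against 2.82% on the rest of chromosome 17. Around Ara-C peaks they were found in 3 of 35, 8.57% (2.96 to 22.4), against 1.87%, and around DNR peaks in 0 of 8 (upper limit 32.4%) against 1.47%. The letters were in 1.46% of all windows of the chromosome, in 2.7% of the windows of the locus and in 2.59% of RefSeq promoters. Within the peaks as deposited, most of which are narrower than 300 bp, the letters were in 3 of 36 mock peaks, 8.33% (2.87 to 21.8), against 2.17%, and in 2 of 35 Ara-C peaks, 5.71% (1.58 to 18.6), against 1.49%. The motif was 1 of 7 searched, and it is a description of letters and not of binding. Of 27 matches in the locus, 3 lay inside a peak. Coverage of the locus by peaks was 4.85% for the mock list, 4.53% for Ara-C and 0.633% for DNR, partly over the same bases. Some matches would thus fall inside a peak by coverage alone, and whether 3 is more than that was not tested. The 3 are shown on the plus strand of GRCh37 with 30 bases on either side. Each match (read on the other strand) is in capitals. The first, chr17:56408840-56408907, is 191 bp upstream of the MIR142 hairpin in the second widest mock peak and the widest Ara-C peak. The second, chr17:56359204-56359271, is 938 bp upstream of the MPO start site in the paired mock and Ara-C peaks there, and the third, chr17:56250131-56250198, is in the mock peak downstream of OR4D2.
PU.1 match at MIR142: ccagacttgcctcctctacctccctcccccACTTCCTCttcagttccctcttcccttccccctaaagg
PU.1 match upstream of MPO: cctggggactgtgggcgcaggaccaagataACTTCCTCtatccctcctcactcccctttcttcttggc
PU.1 match downstream of OR4D2: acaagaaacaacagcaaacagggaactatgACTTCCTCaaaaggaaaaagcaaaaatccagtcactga

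For the 5 other motifs, values are given beside those of peaks on the rest of the chromosome. RUNX (TGTGGT) was around 7 of 36 mock peaks, 19.4% (9.75 to 35.0) against 20.1%, and around 6 of 35 Ara-C peaks, 17.1% against 20.3%, and around 0 of 8 DNR peaks (upper limit 32.4%) against 19.0%. C/EBP (TTGCNNAA) was around 4 mock peaks (11.1% against 13.9%), 7 Ara-C peaks (20% against 14.3%) and 1 DNR peak (12.5% against 11.6%). AP-1 (TGANTCA) was around 5 mock peaks (13.9%, 6.08 to 28.7, against 8.33%), 2 Ara-C peaks (5.71% against 9.07%) and 0 DNR peaks (against 9.09%). The E-box was around 3 mock (8.33% against 6.5%), 2 Ara-C (5.71% against 5.53%) and 1 DNR peak (12.5% against 5.57%). GATA was around 4 mock (11.1% against 13.1%), 3 Ara-C (8.57% against 12.8%) and 2 DNR peaks (25%, 7.15 to 59.1, against 11.9%). In these 300 bp windows the interval of the locus included the value of the rest for each of the 5 motifs in each list. Within the peaks as deposited, which were wider on average in the locus than on the rest (404 against 207 bp in mock), the share of the locus moved from below to above that of the rest in 7 of these 15 cases. There the interval left out the rest for AP-1 in mock (13.9%, 6.08 to 28.7, against 4.92%) and under Ara-C (14.3%, 6.26 to 29.4, against 6.05%) and for GATA in mock (19.4%, 9.75 to 35.0, against 8.86%), and the part of peak width in this was not tested. Mock widths chose the locus, so shares in peaks as deposited are a description and no difference from the rest is read from them. The median GC content of the 300 bp windows was 56.3% in mock, 53.0% in Ara-C and 47.7% in DNR peaks of the locus, against 51.3%, 49.7% and 50% in peaks elsewhere on the chromosome and 46.0% in all windows of the locus.

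The haem peroxidase genes and a list of granulocyte and monocyte microRNA genes were counted to place the locus among related genes. From 2 kb upstream to the gene end, 3 of 5 peroxidase genes had a mock peak, 4 an Ara-C peak and 4 a DNR peak, against 52.2%, 62.3% and 38.1% of all protein-coding genes. The 3 with a mock peak were those of the locus, which its mock peaks chose, so these counts are a description. PXDN, the peroxidasin gene, had 1 Ara-C peak (200 bp) and 1 DNR peak (150 bp), and PXDNL, its homologue, had none. Genes differ in length from 11.1 kb (MPO) to 490 kb (PXDNL), so their counts are not compared with each other or with the shares of all genes. Of the microRNA genes, 14 of 15 could be placed. MIR142, which lies under the second widest mock peak of the list, was the only one with a mock peak, so this count is a description. MIR142 and MIR150 (1 peak of 250 bp) had an Ara-C peak. No microRNA gene of the list had a DNR peak. Of all microRNA genes, 5.77%, 8.04% and 3.31% had a peak in mock, Ara-C and DNR. MIR223, MIR21, MIR146A, MIR181A1, MIR181A2, MIR424, MIR125A, MIR125B1, MIR125B2, MIR196B, MIR126 and MIR10A had no peak in any list.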

How the data were processed

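SUMO-2/3 ChIP-seq peaks of HL-60 cells were analysed from 3 deposited lists, 1 for each of mock, Ara-C and DNR. The values deposited by the authors are peak positions (chromosome, start and end) on hg19. The authors sequenced single-end reads of 50 bases from material pooled over 3 experiments, aligned them with CASAVA 1.8.2, and used Pasha to remove piled-up reads, extend the reads, count them in bins of 50 bp, scale the libraries and subtract the input. Extension length and the limit on piled-up reads were set per library. Peaks were stretches with a signal over 32, joined across gaps up to 100 bp and kept when longer than 100 bp. Gaps of exactly 100 bp still occur between peaks of each list (205 in mock, 326 in Ara-C, 108 in DNR), so the lists do not follow the stated gap rule to the letter. A fixed value makes the number and the width of peaks depend on depth, scaling and noise, and depth is unknown from the lists.

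Starts lie 1 above a multiple of 50 and were taken as 1-based. Chromosome 17 of GRCh37 has the length of hg19. Genes came from GENCODE 44 lifted to GRCh37, and MIR142 was placed by an exact match of its RefSeq hairpin. Promoters ran from 2 kb upstream to the start site of protein-coding genes and of TSPOAP1-AS1. An overlap of 1 bp or more counted as found again and was checked against bedtools 2.31.1. Wilson, exact Poisson and exact conditional intervals (95%) cover counting error only. With 1 library per condition no test was made. The steps were tested on simulated data. Python 3.11.15, numpy 2.4.6, pandas 2.3.3, scipy 1.17.1 and matplotlib 3.10.9 were used.

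The genes, motifs and lists were chosen with earlier results of these data known. Genes named are the 5 genes of the locus, the 2 gene lists and genes that hold or lie nearest to a peak. One gene of the lists is not reported here. Positions are given for peaks of at least 300 bp, shared peaks and peaks near start sites of the 5 genes. Alternatives were peak width, overlap rule, window limits and flank, motif window, and promoter and gene definitions. Promoters of protein-coding genes alone were an alternative chosen after seeing the data.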

Additional observations from a re-analysis of the deposited data

How the results depend on the processing

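Across 12 alternative settings, 88 values of 47 results were computed. No density ratio moved to the other side of 1, 77 stayed within the spread given by counting error or within 1.5 times the count, and 11 moved. Requiring peaks of at least 200 bp left 22 mock, 23 Ara-C and 5 DNR peaks and 36 merged regions. Requiring an overlap of 50% of the peak gave 0% of mock peaks found under DNR. Counting a peak within 500 bp as found raised the share of mock peaks found under Ara-C to 66.7% and of Ara-C peaks found in mock to 62.9%. With promoters of all annotated genes, 15 mock and 15 Ara-C peaks lay at promoters, and with those of protein-coding genes alone, an alternative chosen after seeing the data, 6 mock, 6 Ara-C and 2 DNR peaks. With only the 2 kb upstream of a gene, 1 peroxidase gene had an Ara-C peak and 1 had a DNR peak. The DNR density ratio, whose interval included 1, had a lower bound above 1 with the locus narrowed to the genes and 10 kb on either side (2.5, 1.07 to 4.94) and against 5 Mb flanks (2.40, 1.01 to 4.90). These intervals take no account of the spread between windows. With motifs searched in the peak as deposited, 7 of 15 shares of the motifs other than CTCF and PU.1 moved from below to above that of the rest. No paired analysis was possible because the lists carry no replicate numbers (1 pooled library a condition). The DNR shares rest on 8 peaks, and the depth of the libraries is unknown.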
